A study of Homo sapiens with 12 samples.

Results

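The 34 genes described here encode enzymes of cholesterol synthesis, enzymes of fatty acid synthesis and desaturation, and the regulators that control both. They were taken by gene name from a table of 60671 genes, and each name matched a single row. All 34 had a mean of at least 1 FPKM (sequenced fragments scaled for transcript length and for the depth of the library) over the libraries and entered the tests together with the rest of the 11591 genes that did so. RNA was sequenced from cells labelled Jurkat, a T cell acute lymphoblastic leukemia line, in 12 libraries, 3 in each of 4 groups. NC cells, called WT in the labels and described in the study's methods as carrying a GFP vector, were treated with DMSO (NC+DMSO) or with vincristine (NC+VCR), a drug that blocks microtubule assembly, for 48 h. Cells transduced by lentivirus with FLAG-tagged PTPN21, a non-receptor tyrosine phosphatase, under the SFFV promoter received the same treatments (PTPN21+DMSO and PTPN21+VCR). The vincristine dose of the sequenced cells is not given in the sources used here. The study's methods give 3 replicates a group and say in general that independent experiments were repeated, but not whether the sequenced libraries came from separate cultures. If they did not, the p-values measure only the spread between these libraries, which may be technical.

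Cells build cholesterol from acetyl-CoA through mevalonate, isoprenoid units and squalene, and they build fatty acids from the same acetyl-CoA. When sterol in the endoplasmic reticulum is low, the escort protein SCAP carries the sterol regulatory element binding proteins (SREBPs) to the Golgi, where they are cut to release active transcription factors. When sterol is plentiful, the INSIG proteins hold SCAP back. Proliferating leukemia cells need both products for new membranes.

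The libraries were checked before the comparisons. PTPN21 was between 0.021 and 0.569 FPKM in the 6 NC libraries and between 4.34 and 10.5 in the 6 PTPN21 libraries, without overlap. The markers did not follow the Jurkat label: the T cell gene CD3D was at 61.8 to 139.7 FPKM, but LCK was at 0 in all 12 libraries, CD2 did not exceed 0.029, and CD3G, CD7 and LAT did not exceed 1.03, 0.605 and 0.796. The summed FPKM of the epithelial genes EPCAM, KRT8 and KRT19 was between 511 and 665 with DMSO and between 1273 and 1850 with VCR. GATA1, KLF1 and ALAS2, erythroid genes looked up after these values were seen, were also detected, with GATA1 at 57.4 to 106 FPKM with DMSO and 13.5 to 25.3 with VCR, and KLF1 at 23.4 to 39.6 and 1.39 to 3.72. Cells are therefore called by their group names, and the part of these genes in the results below was not tested. Depth was estimated at 14400000 to 23900000 fragments a library, and was lowest in NC+DMSO (up to 16300000) and highest in PTPN21+DMSO (from 22400000). With VCR fewer genes reached 1 FPKM (10437 to 11006, against 11347 to 12510 with DMSO), and the summed FPKM of mitochondrially encoded genes was lower (36595 to 48074, against 58249 to 66599).

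The summed FPKM of the 34 genes was lower in every VCR library than in every DMSO library. It was 718, 719 and 745 in NC+DMSO and 590.2, 614 and 627 in PTPN21+DMSO. It was 440, 416 and 462 in NC+VCR and 436, 451 and 408 in PTPN21+VCR. The sums of NC+DMSO lay above those of PTPN21+DMSO without overlap, whereas the sums of the VCR groups overlapped. Genes of high FPKM weigh most in these sums. EBP had a mean of 101 FPKM in NC+DMSO and 36.7 in PTPN21+DMSO, whereas ACAT2 had 141 and 166. Of the 34 log2 differences of PTPN21+DMSO from NC+DMSO, 22 were below 0 and 12 above. In bulk RNA, fewer cells of a type and less RNA per cell cannot be told apart.

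Sequences upstream of the genes are shown because the genes share a family of regulators. RefSeq promoters (GRCh38.p14, 250 bases before to 50 after each start) were found for 30 of the 34 genes, 44 promoters in all. None was found for ACAT2, SQLE, FASN or FDFT1, so the counts leave them out, although all but FDFT1 fell with VCR in both cell lines. Only the 250 bases before each start were searched, on both strands. CACNCCAC, the core of many sterol regulatory elements, was in 6 of the 44 promoters (13.6%), against 4.87% of all 35116 promoters. CCAAT, the NF-Y box often found beside such elements, was in 24 of them (54.5%, against 32%), and the GC box GGGCGG in 38 (86.4%, against 42.6%). The core was in 2 of the 14 matched genes that fell with VCR in NC cells, PTPN21 cells or both (ACACA and SCD). It was in 4 of the other 16 (IDI1, INSIG1, SC5D and SREBF2). These matches describe letters and are no evidence of binding. The windows with a core are printed up to the first annotated exon base, 5′ to 3′ on the gene's strand, or as 30 bases around the core where an annotated exon covers it, with the core and CCAAT (either strand) in capitals.
SREBF2, chr22:41832855-41833078, plus strand: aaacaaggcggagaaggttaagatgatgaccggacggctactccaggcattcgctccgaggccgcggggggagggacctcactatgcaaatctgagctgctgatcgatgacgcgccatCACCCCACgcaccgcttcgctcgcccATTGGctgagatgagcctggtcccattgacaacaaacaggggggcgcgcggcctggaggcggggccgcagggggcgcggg
INSIG1, chr7:155297628-155297775, plus strand: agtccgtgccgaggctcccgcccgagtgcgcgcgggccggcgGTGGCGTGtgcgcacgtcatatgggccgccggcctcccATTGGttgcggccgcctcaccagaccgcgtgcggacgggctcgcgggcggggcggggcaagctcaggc
ACACA, chr17:37299768-37300017, minus strand: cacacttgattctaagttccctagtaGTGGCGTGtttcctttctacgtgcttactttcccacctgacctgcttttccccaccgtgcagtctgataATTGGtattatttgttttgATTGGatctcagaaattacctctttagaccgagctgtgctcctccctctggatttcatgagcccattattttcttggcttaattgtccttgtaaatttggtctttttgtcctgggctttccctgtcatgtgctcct
SCD, chr10:100347108-100347137, plus strand: gcagaggccggGTGGTGTGgtgtcggtgtc
IDI1, chr10:1048983-1049012, minus strand: ggccgggcgatGTGGCGTGgactggcgctg
SC5D, chr11:121292773-121292802, plus strand: tttgcagagcaGTGGCGTGcggagcggcgg

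To ask what VCR did to these genes in control cells, NC+VCR was compared with NC+DMSO. Of the 34 genes, 15 fell and none rose (limma, Benjamini-Hochberg adjusted p under 0.05 over all genes tested). That is 44.1% of the genes called, against 36.2% of all genes tested (28.3% lower, 7.91% higher). An unadjusted limma p under 0.05 was seen for 20 of the 34 genes, against 5379 of the 11591 genes tested. The median log2 difference was -0.69 for the 34 genes and -0.36 for all genes, so that the 34 genes lay 0.33 below the median of all genes. The 3 libraries of the groups did not overlap, with VCR lower, for 17 of the 34 genes, against 44.1% of all genes (33.9% lower). By role, 6 of the 8 genes of fatty acid synthesis and desaturation fell, as did 5 of 11 in the sterol branch from squalene, 3 of 6 regulators and carriers, and 1 of 9 in the early mevalonate pathway. When each library was divided by its median ratio to the other libraries, the median of all genes moved to -0.04. That of the 34 genes was then -0.35. With this scaling 6 of the 34 genes fell and LPIN1 rose, 20.6% called against 26.6% of all genes tested. The higher share of the 34 genes was therefore not seen with median ratio scaling. With TPM scaling it was seen, as 17 of the 34 genes fell, against 39.3% of all genes tested that were called. With median ratio scaling 55.8% of all genes called were higher, against 21.9% as deposited.

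In PTPN21+VCR against PTPN21+DMSO, 11 of the 34 genes fell and 1, LPIN1, rose (limma, adjusted p under 0.05), 35.3% against 28.5% of all genes tested (19.3% lower, 9.22% higher). The median log2 difference was -0.49, and -0.17 for all genes. Groups did not overlap for 14 genes that were lower and 1 that was higher (44.1%), against 50.4% of all genes (33.3% lower). The counts by role were 4 lower and 1 higher of 8 for fatty acids, 3 of 11 for the sterol branch, 1 of 6 for regulators and carriers, and 3 of 9 for the early mevalonate pathway. With median ratio scaling 7 genes fell and LPIN1 rose, 23.5% called against 26.2% of all genes tested. With TPM scaling the shares were 26.5% and 27.0%, so the higher share of the 34 genes was seen with neither scaling. With median ratio scaling 52.2% of all genes called were higher, against 32.3% as deposited. The group means of this comparison come from other libraries than those in NC cells. The spread of each gene was estimated once from all libraries, so the calls in the cell lines are not independent. The 9 genes that fell in both were ACAT2, SQLE, TM7SF2, NSDHL, SCAP, FASN, ACACA, SCD and FADS1. The 9 are 60% of the genes that fell in NC cells and 81.8% of those that fell in PTPN21 cells, against 48.7% and 71.3% for all genes. Over the 34 genes the differences in NC and PTPN21 cells had a Pearson correlation of 0.64 (Spearman 0.56), and over all genes 0.69 (0.65), which describes genes measured in the same libraries.

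**Figure D1:**
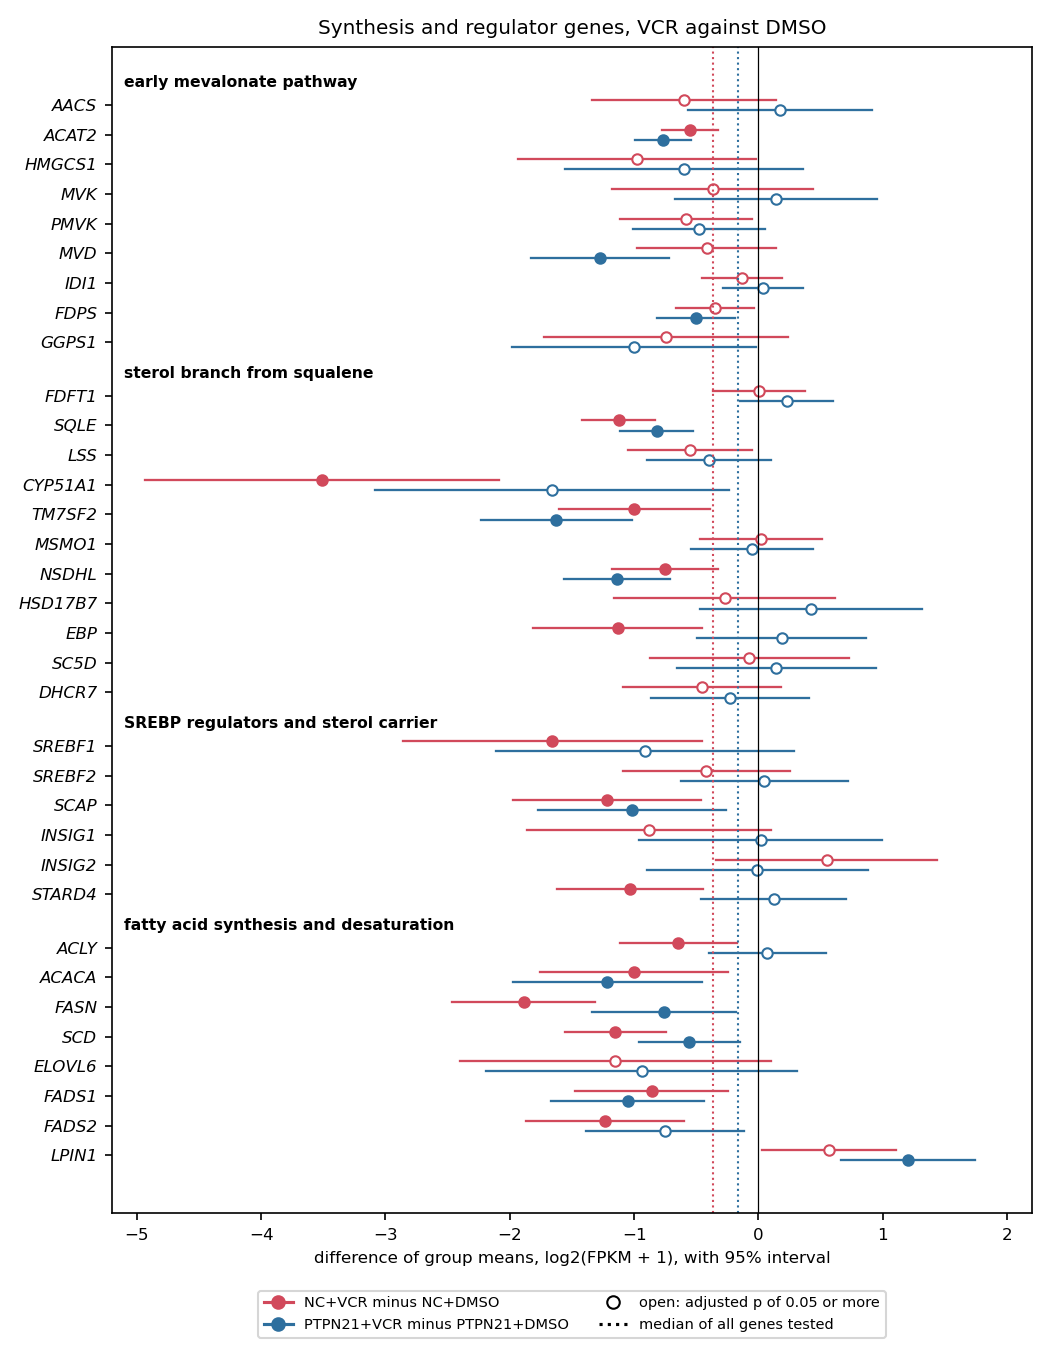
Difference between the VCR and DMSO group means on the log2(FPKM + 1) scale (x axis) for each of the 34 genes (y axis, by role), with 95% intervals from limma, in NC cells (red) and PTPN21 cells (blue). Filled points have an adjusted p under 0.05, and dotted lines mark the median of all genes tested (-0.36 in NC cells, -0.17 in PTPN21 cells). Most genes lie to the left of 0 in NC cells, CYP51A1 farthest, and LPIN1 is the gene farthest to the right in both.

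Among genes of the early mevalonate pathway, ACAT2 (ENSG00000120437, chromosome 6 from 159760328 to 159779055 in GRCh38, as in GENCODE release 29) encodes the cytosolic thiolase that joins acetyl-CoA units and had the highest level of the 34 genes. Its FPKM was 144, 154 and 126 in NC+DMSO and 168, 169 and 160.2 in PTPN21+DMSO. With VCR it was 91.9, 99.2 and 96.4 in NC cells and 91.0, 96.5 and 104 in PTPN21 cells. Every VCR library was below every DMSO library. ACAT2 fell by 0.55 on the log2 scale in NC cells (SE 0.104, limma adjusted p = 0.00192) and by 0.77 in PTPN21 cells (SE 0.104, limma adjusted p = 0.000266). With median ratio scaling the difference in NC cells was -0.16 and did not pass. ACAT2 shares 397 exon bases with TCP1 on the opposite strand, and no source used here says that counting used strand.

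MVD (ENSG00000167508, chromosome 16 from 88651935 to 88663161), which decarboxylates mevalonate diphosphate to the isoprenoid unit, differed by cell line in what passed. Its FPKM was 6.53, 7.83 and 12.3 in NC+DMSO and 10.7, 9.72 and 7.63 in PTPN21+DMSO. In NC+VCR it was 8.55, 5.26 and 5.25, and in PTPN21+VCR 4.05, 2.73 and 3.06. The NC groups overlapped, whereas the PTPN21+VCR libraries were below all others. MVD fell by 1.27 on the log2 scale in PTPN21 cells (SE 0.257, limma adjusted p = 0.00333), and the difference in NC cells was -0.42 (SE 0.257, limma adjusted p = 0.223). The interaction, which tests the difference between these 2 values, was -0.86 (SE 0.363, limma adjusted p = 0.324).

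FDPS (ENSG00000160752, chromosome 1 from 155308748 to 155320666) makes farnesyl diphosphate, the last step before sterols and prenylated proteins part. Its FPKM was 93.7, 93.2 and 71.6 in NC+DMSO and 106, 94.5 and 107 in PTPN21+DMSO. In the VCR libraries it was 75.2, 55.2 and 72.1 in NC cells and 68.2, 72.5 and 75.7 in PTPN21 cells. With VCR against DMSO the NC groups overlapped and the PTPN21 groups did not, and in PTPN21 cells FDPS fell by 0.50 on the log2 scale (SE 0.145, limma adjusted p = 0.0221). This call was lost without PTPN21+DMSO replicate 1 or 3 or without PTPN21+VCR replicate 1 or 2 (limma adjusted p from 0.0569 to 0.0737) and with median ratio scaling, where the difference was -0.31 (0.188). The other 6 genes of the early pathway passed in neither comparison. HMGCS1, which makes HMG-CoA, had a difference of -0.98 in NC cells (SE 0.44, limma adjusted p = 0.1), and PMVK one of -0.58 (SE 0.243, limma adjusted p = 0.0795), both with groups that did not overlap, and PMVK passed with TPM scaling (limma adjusted p = 0.0361). IDI1, the isomerase of the isoprenoid unit, stayed between 14.8 and 22.1 FPKM in all 12 libraries. GGPS1 shares 37.3% of its exon bases with TBCE (ENSG00000285053) on the same strand, and its values of 3.42 to 16.7 FPKM are uncertain for that reason.

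In the sterol branch, SQLE (ENSG00000104549, chromosome 8 from 124998497 to 125022283) encodes squalene epoxidase, a rate-limiting enzyme of cholesterol synthesis. Its FPKM was 49.98, 43.1 and 50.4 in NC+DMSO and 30.6, 39.0 and 34.1 in PTPN21+DMSO. Under VCR the values were 21.4, 20.8 and 21.9 in NC cells and 20.1, 20.4 and 16.8 in PTPN21 cells. NC+DMSO was highest, followed by PTPN21+DMSO, then NC+VCR and last PTPN21+VCR, and no neighbouring groups overlapped. SQLE fell by 1.12 on the log2 scale in NC cells (SE 0.135, limma adjusted p = 0.000107), the smallest adjusted p of the 34 genes, and by 0.74 with median ratio scaling (limma adjusted p = 0.000884). It fell by 0.82 in PTPN21 cells (SE 0.135, limma adjusted p = 0.000986). The difference of PTPN21+DMSO from NC+DMSO was -0.46 (SE 0.135, limma adjusted p = 0.061), and that between the VCR groups did not pass either (limma adjusted p = 0.609).

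NSDHL (ENSG00000147383, chromosome X from 152830967 to 152869729) and TM7SF2 (ENSG00000149809, chromosome 11 from 65111845 to 65116384) act on the sterol ring after lanosterol, NSDHL in removing methyl groups at carbon 4 and TM7SF2 as a sterol reductase. NSDHL was at 7.75, 10.4 and 8.80 FPKM in NC+DMSO and at 14.5, 9.36 and 12.7 in PTPN21+DMSO, and at 5.03, 4.19 and 5.55 in NC+VCR and 5.32, 4.99 and 4.48 in PTPN21+VCR. TM7SF2 was at 6.25, 4.18 and 2.75 FPKM in NC+DMSO and at 6.04, 5.51 and 4.80 in PTPN21+DMSO, and at 2.36, 1.46 and 1.15 in NC+VCR and 1.04, 0.70 and 1.61 in PTPN21+VCR. For both genes every VCR library was below every DMSO library. NSDHL fell by 0.75 on the log2 scale in NC cells (SE 0.196, limma adjusted p = 0.0113) and by 1.14 in PTPN21 cells (SE 0.196, limma adjusted p = 0.00129). TM7SF2 fell by 1.00 in NC cells (SE 0.278, limma adjusted p = 0.0156) and by 1.62 in PTPN21 cells (SE 0.278, limma adjusted p = 0.00123). The call of TM7SF2 in NC cells was lost without NC+DMSO replicate 1 (limma adjusted p = 0.0659) and without NC+VCR replicate 3 (limma adjusted p = 0.0522). Neither gene passed in NC cells with median ratio scaling, where the differences were -0.41 for NSDHL and -0.71 for TM7SF2, and TM7SF2 did not pass with only the 2 groups compared (limma adjusted p = 0.0625).

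EBP (ENSG00000147155, chromosome X from 48521158 to 48528716), the isomerase that shifts the double bond of the sterol ring, was high in NC+DMSO alone. Its FPKM was 95.8, 112 and 96.3 in NC+DMSO and 26.7, 26.2 and 57.0 in PTPN21+DMSO. With VCR it was 51.4, 40.5 and 45.4 in NC cells and 29.98, 64.4 and 30.9 in PTPN21 cells. All 3 NC+DMSO libraries were above the other 9, and the other 3 groups overlapped, with PTPN21+DMSO replicate 3 and PTPN21+VCR replicate 2 apart from the rest of their groups. EBP fell by 1.13 on the log2 scale with VCR in NC cells (SE 0.312, limma adjusted p = 0.0147), a call lost with no filter on low values (0.0552) and with median ratio scaling, where the difference was -0.75 (0.0966). In PTPN21 cells the difference was 0.19 (SE 0.312, limma adjusted p = 0.697, 95% interval -0.49 to 0.86). The interaction was 1.32 (SE 0.441, limma adjusted p = 0.234), so the responses of the cell lines were not shown to differ.

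CYP51A1 (ENSG00000001630, chromosome 7 from 92112151 to 92134803), the lanosterol demethylase, had the largest difference of the 34 genes as deposited, and a smaller one when summed with a gene that shares its exons. Its FPKM was 12.8, 11.1 and 17.6 in NC+DMSO and 0.208, 10.8 and 9.74 in PTPN21+DMSO. In the VCR libraries it was 0.345, 0.383 and 0.121 in NC cells and 0.38, 0.815 and 0.938 in PTPN21 cells. The gene ENSG00000285772 shares 2844 exon bases with CYP51A1 on the same strand (79.4% of the exon bases of CYP51A1). It was at 0 in the 5 DMSO libraries where CYP51A1 was 9.74 or more, and at 3.59 to 7.38 FPKM in the 7 libraries where CYP51A1 was below 1, among them PTPN21+DMSO replicate 1. As deposited, CYP51A1 fell by 3.51 on the log2 scale in NC cells (SE 0.655, limma adjusted p = 0.00179), while ENSG00000285772 was higher with VCR by 2.85 (SE 0.537, limma adjusted p = 0.00189). The sum of the 2 rows, a choice made after seeing the data, was 13.8 ± 3.37 FPKM (SD, n = 3) in NC+DMSO and 6.54 ± 1.07 in NC+VCR, and it was 8.64 ± 2.89 in PTPN21+DMSO and 5.14 ± 0.691 in PTPN21+VCR. Summed, the fall in NC cells was 0.96 on the log2 scale (SE 0.251, limma adjusted p = 0.0115). In PTPN21 cells the difference was -1.66 as deposited (SE 0.655, limma adjusted p = 0.0773) and -0.60 summed (SE 0.251, limma adjusted p = 0.0914). Whether fragments were assigned to one row or the other, or the transcripts themselves differed, was not tested. Without PTPN21+DMSO replicate 1 the deposited difference in PTPN21 cells was -2.73 (limma adjusted p = 6.51e-05).

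**Figure D2:**
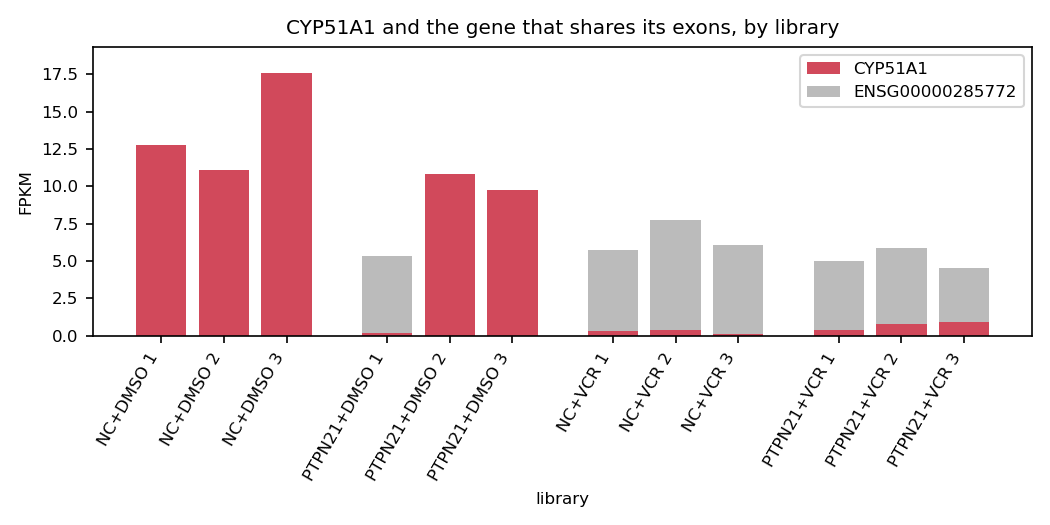
FPKM (y axis) of CYP51A1 (red) and of ENSG00000285772, the gene that shares 79.4% of its exon bases (grey), stacked for each of the 12 libraries (x axis). CYP51A1 holds the whole bar in NC+DMSO and in 2 PTPN21+DMSO libraries, and ENSG00000285772 holds most of it in PTPN21+DMSO replicate 1 and in all 6 VCR libraries.

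The other 6 genes of the sterol branch passed in neither VCR comparison. FDFT1, squalene synthase, was at 35.6 to 58.9 FPKM, and VCR and DMSO libraries overlapped in both cell lines. LSS, which closes the ring of lanosterol, was lower with VCR by 0.55 on the log2 scale in NC cells without overlap, a difference that did not pass (SE 0.23, limma adjusted p = 0.0812) and that passed without NC+VCR replicate 2 (limma adjusted p = 0.0321). MSMO1, HSD17B7, SC5D and DHCR7, which act on later sterol intermediates, had differences from -0.45 to 0.42 over both cell lines, with every interval across 0.

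Among the regulators, SREBF1 (ENSG00000072310, chromosome 17 from 17810399 to 17837002) encodes the SREBPs that act mainly on fatty acid genes. Its FPKM was 5.90, 4.62 and 14.2 in NC+DMSO and 4.15, 5.78 and 4.86 in PTPN21+DMSO. Under VCR the values were 3.41, 0.224 and 2.48 in NC cells and 1.93, 0.651 and 5.34 in PTPN21 cells. The NC groups did not overlap, and the PTPN21 groups did. SREBF1 fell by 1.66 on the log2 scale in NC cells (SE 0.552, limma adjusted p = 0.0346), and in PTPN21 cells the difference was -0.91 (SE 0.552, limma adjusted p = 0.242). The call was lost without NC+DMSO replicate 1 (limma adjusted p = 0.054), NC+DMSO replicate 3 (0.134) or NC+VCR replicate 2 (0.131, with a difference of -1.10). It was also lost with a pseudocount of 0.1 (limma adjusted p = 0.0514), with no filter (0.109), with median ratio scaling (0.0859) and with only the 2 groups compared (0.0638).

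SCAP (ENSG00000114650, chromosome 3 from 47413694 to 47477126), the escort of the SREBPs, was lower with VCR in both cell lines. Its FPKM was 5.96, 4.34 and 9.09 in NC+DMSO and 5.59, 5.88 and 3.21 in PTPN21+DMSO. With VCR it was 4.01, 1.01 and 1.94 in NC cells and 2.22, 2.07 and 1.33 in PTPN21 cells. Neither pair of groups overlapped. SCAP fell by 1.22 on the log2 scale in NC cells (SE 0.348, limma adjusted p = 0.0176) and by 1.02 in PTPN21 cells (SE 0.348, limma adjusted p = 0.0459). In NC cells it did not pass without NC+DMSO replicate 3 (limma adjusted p = 0.0722) or NC+VCR replicate 2 (0.0662), with no filter (0.0538), with median ratio scaling (0.05996) or with only the 2 groups compared (0.0594). In PTPN21 cells it did not pass when any of 7 libraries was left out, namely NC+DMSO replicate 1, NC+VCR replicate 3, PTPN21+DMSO replicates 1 and 2 and each PTPN21+VCR library (limma adjusted p from 0.0549 to 0.139), nor with a pseudocount of 0.1, no filter, TPM scaling or median ratio scaling (0.0523 to 0.121).

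SREBF2 (ENSG00000198911, chromosome 22 from 41833079 to 41907308) encodes the SREBP that acts mainly on cholesterol genes. Its FPKM was 4.81, 2.97 and 5.70 in NC+DMSO against 1.88, 5.27 and 2.57 in NC+VCR. It was 2.99, 3.53 and 2.19 in PTPN21+DMSO against 3.26, 3.6 and 2.25 in PTPN21+VCR. All 4 groups overlapped, and the VCR differences were -0.42 in NC cells and 0.05 in PTPN21 cells (SE 0.308, limma adjusted p = 0.302 and 0.928).

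INSIG1 (ENSG00000186480, chromosome 7 from 155297776 to 155310235) holds SCAP back and is itself a target of the SREBPs. Its FPKM was 6.72, 9.0 and 15.5 in NC+DMSO against 3.70, 2.17 and 12.8 in NC+VCR. It was 5.47, 5.68 and 5.03 in PTPN21+DMSO against 7.58, 4.55 and 4.67 in PTPN21+VCR. NC+VCR replicate 3 was well above the rest of its group and inside the range of NC+DMSO. The VCR difference was -0.88 in NC cells (SE 0.45, limma adjusted p = 0.145) and 0.02 in PTPN21 cells (limma adjusted p = 0.983). Without NC+VCR replicate 3 the difference in NC cells was -1.49 (limma adjusted p = 0.00613).
INSIG2 (ENSG00000125629, chromosome 2 from 118088452 to 118110997), its paralog, was at 2.39, 0.788 and 1.88 FPKM in NC+DMSO against 3.17, 3.6 and 1.84 in NC+VCR. It was at 1.98, 2.35 and 0.571 in PTPN21+DMSO against 3.40, 0.629 and 1.14 in PTPN21+VCR. The spread within groups was as large as the range between them, and the VCR differences were 0.55 in NC cells and -0.01 in PTPN21 cells (SE 0.408, limma adjusted p = 0.309 and 0.987).

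STARD4 (ENSG00000164211, chromosome 5 from 111496033 to 111512590), which carries sterol between membranes and responds to SREBP2, was at 4.44, 2.70 and 5.78 FPKM in NC+DMSO and at 1.19, 2.32 and 2.41 in PTPN21+DMSO. In the VCR libraries it was at 2.05, 1.12 and 1.46 in NC cells and at 2.38, 2.17 and 1.96 in PTPN21 cells. All NC+DMSO libraries were above the other 9 libraries. STARD4 fell by 1.03 on the log2 scale with VCR in NC cells (SE 0.269, limma adjusted p = 0.0113), and in PTPN21 cells the difference was 0.12 (SE 0.269, limma adjusted p = 0.776, 95% interval -0.47 to 0.71). Its interaction was 1.15 (SE 0.381, limma adjusted p = 0.231).

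Of the 4 roles, fatty acid synthesis had the largest share of genes that fell in both cell lines. FASN (ENSG00000169710, chromosome 17 from 82078333 to 82098332), the multifunctional enzyme that builds palmitate, was at 9.42, 15.1 and 17.3 FPKM in NC+DMSO and at 7.64, 9.72 and 8.04 in PTPN21+DMSO. After VCR it was at 3.45, 1.81 and 3.84 in NC cells and at 4.68, 3.65 and 5.52 in PTPN21 cells. Every VCR library was below every DMSO library. FASN fell by 1.89 on the log2 scale in NC cells (SE 0.265, limma adjusted p = 0.000304), where the mean FPKM was 4.60-fold lower, and by 0.76 in PTPN21 cells (SE 0.265, limma adjusted p = 0.0493). The interaction was 1.13 (SE 0.375, limma adjusted p = 0.232). The call in PTPN21 cells was lost when any of 8 libraries was left out, namely each PTPN21+DMSO and PTPN21+VCR library, NC+DMSO replicate 2 and NC+VCR replicate 1 (limma adjusted p from 0.0526 to 0.161), and with a pseudocount of 0.1, no filter, TPM scaling or median ratio scaling (0.0552 to 0.109).

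SCD (ENSG00000099194, chromosome 10 from 100347124 to 100364834), the desaturase that makes monounsaturated fatty acids, was at 47.8, 38.1 and 55.3 FPKM in NC+DMSO and at 20.3, 28.9 and 27.1 in PTPN21+DMSO. With VCR it was at 18.1, 23.8 and 19.8 in NC cells and at 18.2, 18.2 and 14.2 in PTPN21 cells. NC+DMSO was above all other groups, and PTPN21+DMSO was above PTPN21+VCR without overlap. SCD fell by 1.15 on the log2 scale in NC cells (SE 0.187, limma adjusted p = 0.000754) and by 0.56 in PTPN21 cells (SE 0.187, limma adjusted p = 0.042). The interaction was 0.59 (SE 0.264, limma adjusted p = 0.343). The call in PTPN21 cells was lost when any of 7 libraries was left out, namely PTPN21+DMSO replicates 2 and 3, each PTPN21+VCR library, NC+DMSO replicate 1 and NC+VCR replicate 3 (limma adjusted p from 0.0502 to 0.146). It was also lost with no filter, TPM scaling, median ratio scaling or no trend (limma adjusted p from 0.0572 to 0.127).

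ACACA (ENSG00000278540, chromosome 17 from 37084988 to 37406818), acetyl-CoA carboxylase, supplies the malonyl units. Its FPKM was 13.5, 21.0 and 19.2 in NC+DMSO and 17.9, 19.3 and 19.0 in PTPN21+DMSO. In the VCR libraries it was 3.85, 10.0 and 14.0 in NC cells and 10.6, 6.55 and 5.99 in PTPN21 cells. NC+VCR replicate 3 was above NC+DMSO replicate 1, whereas the PTPN21 groups did not overlap. ACACA fell by 1.00 on the log2 scale in NC cells (SE 0.349, limma adjusted p = 0.0414) and by 1.22 in PTPN21 cells (SE 0.349, limma adjusted p = 0.0216). The call in NC cells was lost when any of 8 libraries was left out, NC+DMSO replicates 2 and 3, NC+VCR replicates 1 and 2, each PTPN21+DMSO library and PTPN21+VCR replicate 2 (limma adjusted p from 0.0519 to 0.131), and that in PTPN21 cells when any PTPN21+DMSO library or PTPN21+VCR replicate 2 or 3 was left out (0.0518 to 0.0743) or no filter was used (0.0724). The NC difference was -0.53 without NC+VCR replicate 1 and -0.64 with median ratio scaling (limma adjusted p = 0.201), and it did not pass with no filter (0.116) or with only the 2 groups compared (0.106).

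FADS1 (ENSG00000149485, chromosome 11 from 61799625 to 61829318) and FADS2 (ENSG00000134824, chromosome 11 from 61792980 to 61867354) encode the delta-5 and delta-6 desaturases of polyunsaturated fatty acids. FADS1 was at 42.4, 38.2 and 53.6 FPKM in NC+DMSO and at 27.8, 34.4 and 31.0 in PTPN21+DMSO, and at 23.6, 24.9 and 23.6 in NC+VCR and 20.2, 19.2 and 7.54 in PTPN21+VCR. FADS2 was at 2.49, 2.14 and 4.79 FPKM in NC+DMSO and at 2.03, 3.13 and 1.38 in PTPN21+DMSO, and at 0.416, 0.764 and 0.938 in NC+VCR and 1.20, 0.899 and 0.494 in PTPN21+VCR. For both genes VCR and DMSO libraries did not overlap in either cell line. FADS1 fell by 0.86 on the log2 scale in NC cells (SE 0.283, limma adjusted p = 0.0336) and by 1.05 in PTPN21 cells (SE 0.283, limma adjusted p = 0.0161). FADS2 fell by 1.24 in NC cells (SE 0.292, limma adjusted p = 0.00668), and its difference of -0.75 in PTPN21 cells did not pass (SE 0.292, limma adjusted p = 0.0734). The call of FADS1 in NC cells was lost when NC+DMSO replicate 1 or 3 or any NC+VCR library was left out (limma adjusted p from 0.0636 to 0.111), with no filter (0.0976) and with median ratio scaling, where the difference was -0.48 (0.205). In PTPN21 cells the call of FADS1 was lost without PTPN21+DMSO replicate 2 (limma adjusted p = 0.0548) and with no filter (0.0564), and the difference was -0.63 without PTPN21+VCR replicate 3, the library at 7.54 FPKM. With a pseudocount of 0.1 the difference of FADS2 in NC cells was -1.98. FADS2 passed in PTPN21 cells without NC+DMSO replicate 3 (limma adjusted p = 0.0439). The genes share 490 exon bases on opposite strands.

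ACLY (ENSG00000131473, chromosome 17 from 41866908 to 41930542), which makes cytosolic acetyl-CoA for both pathways, was at 23.5 ± 5.39 FPKM (SD, n = 3) in NC+DMSO and 14.6 ± 2.53 in NC+VCR, and at 11.8 ± 2.67 in PTPN21+DMSO and 12.3 ± 2.24 in PTPN21+VCR. It was highest in NC+DMSO, without overlap with any other group. ACLY fell by 0.64 on the log2 scale with VCR in NC cells (SE 0.217, limma adjusted p = 0.0364), a call lost without NC+DMSO replicate 1 or 3 or NC+VCR replicate 1 or 2 (0.0544 to 0.137), with no filter (0.0808), with only the 2 groups compared (0.0711) and with median ratio scaling, where the difference was -0.27 (0.304). In PTPN21 cells the difference was 0.07 (SE 0.217, limma adjusted p = 0.839), and the interaction was 0.72 (SE 0.307, limma adjusted p = 0.332). ELOVL6, which lengthens palmitate, had differences of -1.15 and -0.94 with wide errors (SE 0.575, limma adjusted p = 0.136 and 0.247).

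LPIN1 (ENSG00000134324, chromosome 2 from 11677595 to 11827409) encodes lipin 1, a phosphatidate phosphatase of triglyceride synthesis and a coregulator of transcription, and was the 1 gene that rose with VCR. Its FPKM was 4.51, 4.19 and 6.70 in NC+DMSO and 1.43, 2.93 and 2.10 in PTPN21+DMSO. Under VCR the values were 7.61, 10.6 and 6.16 in NC cells and 5.89, 6.02 and 6.51 in PTPN21 cells. All PTPN21+VCR libraries were above all PTPN21+DMSO libraries, and the NC groups overlapped. LPIN1 rose by 1.20 on the log2 scale in PTPN21 cells (SE 0.247, limma adjusted p = 0.0037), and the difference in NC cells was 0.57 (SE 0.247, limma adjusted p = 0.0916), which passed with median ratio scaling at 0.90.

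**Figure D3:**
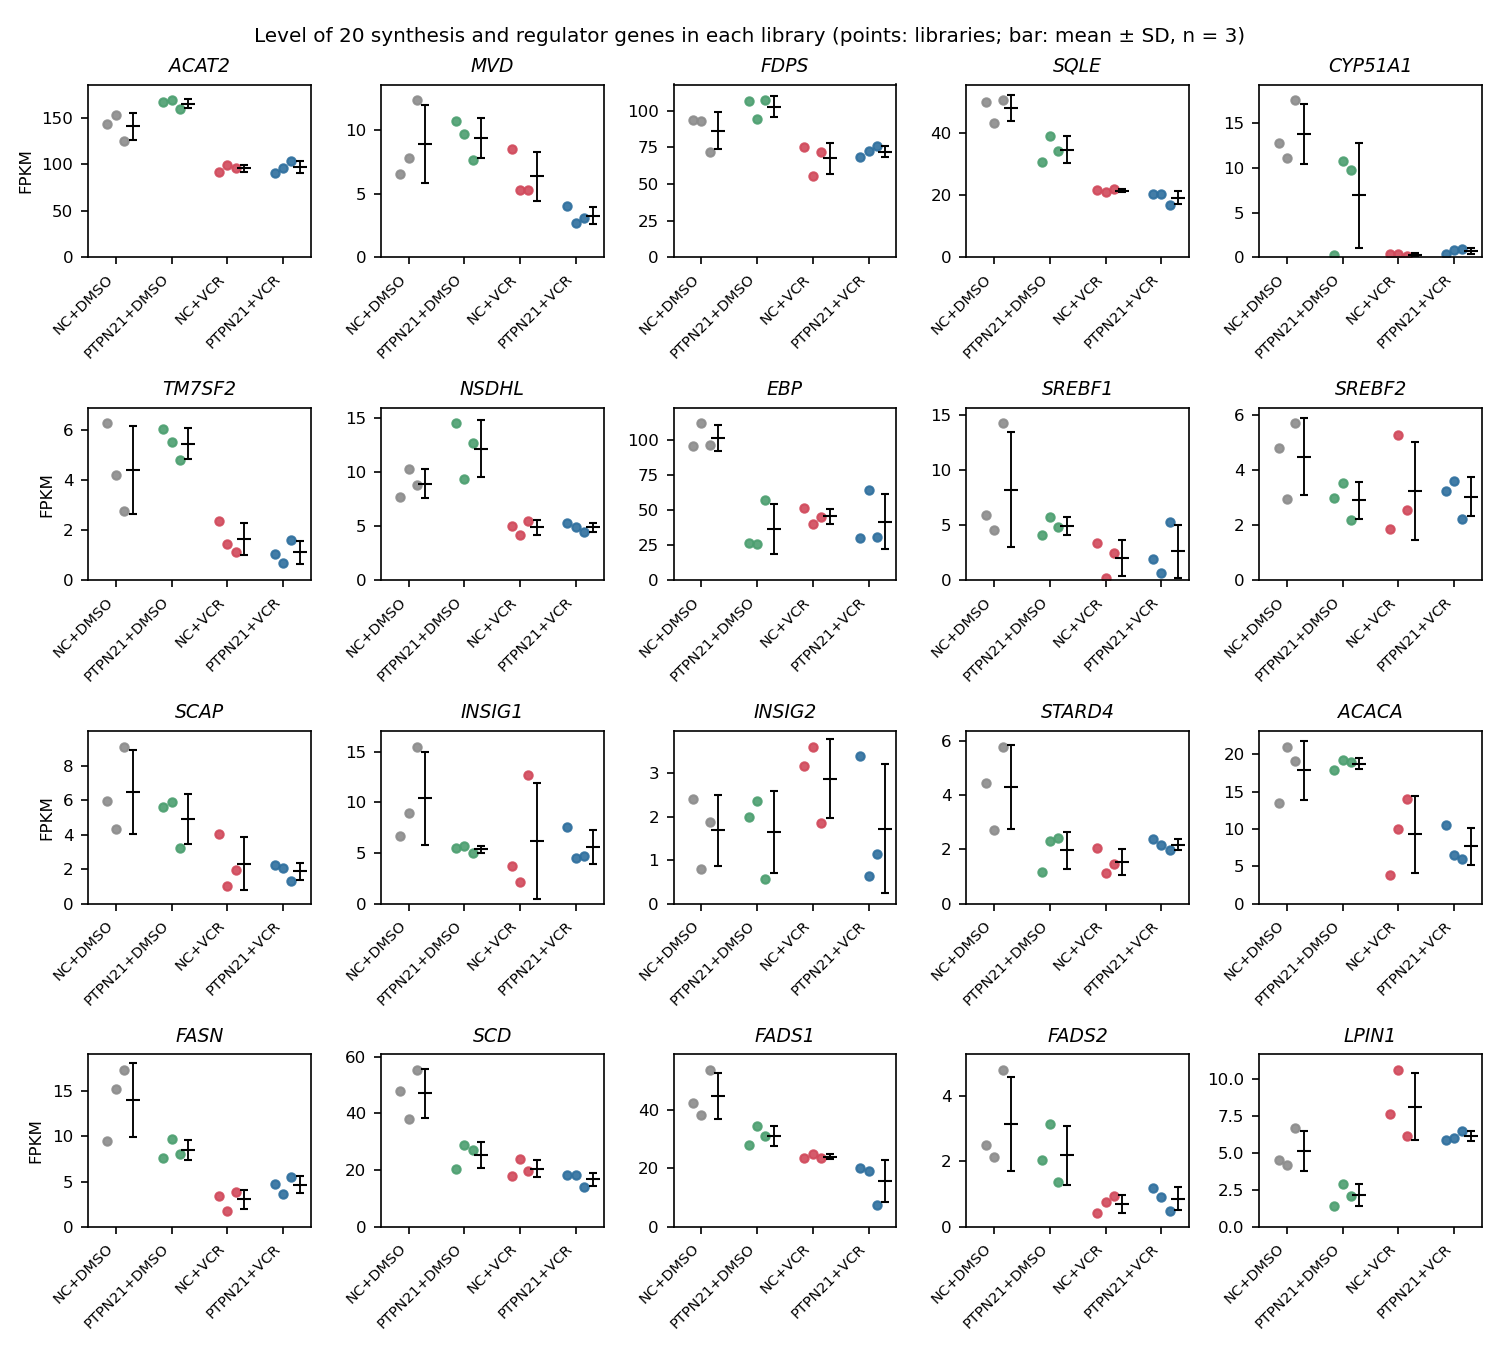
FPKM (y axis, linear) in each of the 3 libraries (points, replicates 1 to 3 from left to right) of the 4 groups (x axis), with the group mean and SD (bar), for the 16 genes with the smallest adjusted p and the remaining regulators. SQLE, FASN, NSDHL and SCD are lower in every VCR library than in the DMSO libraries of the same cells, and LPIN1 is higher in PTPN21+VCR than in PTPN21+DMSO.

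To ask what PTPN21 overexpression did without the drug, PTPN21+DMSO was compared with NC+DMSO. Of the 34 genes, 4 fell (EBP, ACLY, SCD and LPIN1) and none rose (limma, adjusted p under 0.05), 11.8% against 6.34% of all genes tested (3.69% lower, 2.65% higher). The median log2 difference was -0.45, and -0.14 for all genes. Groups did not overlap for 12 genes that were lower and 3 that were higher (44.1%), against 33.4% of all genes (21.9% lower). EBP fell by 1.53 on the log2 scale (SE 0.312, limma adjusted p = 0.0217), LPIN1 by 0.96 (SE 0.247, limma adjusted p = 0.042), ACLY by 0.94 (SE 0.217, limma adjusted p = 0.0311) and SCD by 0.86 (SE 0.187, limma adjusted p = 0.0256). The next smallest adjusted p were those of SQLE (given above), AACS (difference -1.15, SE 0.34, limma adjusted p = 0.0626) and STARD4 (-0.82, SE 0.269, limma adjusted p = 0.0861).

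These calls rested on few libraries, as did those over all genes. None of the 34 genes passed without NC+DMSO replicate 1, without NC+DMSO replicate 3 or without PTPN21+DMSO replicate 1. Only 1, EBP, passed without PTPN21+DMSO replicate 3. Of all genes tested 1.46%, 1.17%, 0.578% and 1.6% passed in these 4 settings, against 6.34% with all libraries. EBP did not pass without PTPN21+DMSO replicate 2, and LPIN1 did not pass without NC+VCR replicate 1 or any PTPN21+VCR library. Over all losses the limma adjusted p was between 0.0505 and 0.173. Without NC+DMSO replicate 3 the median difference was -0.17. That library had the highest value of its group for 20 of the 34 genes (58.8%), against 45.4% of all genes tested, and PTPN21+DMSO replicate 2 for 20 of 34 (58.8%), against 42.1%. The estimated depth of the 2 groups did not overlap, and its part in the difference was not tested. With no filter or with only the 2 groups compared none of the 34 genes passed (limma adjusted p of the 4 genes from 0.0647 to 0.095). Of all genes tested 0.628% and 0.345% passed in these settings. LPIN1 did not pass with median ratio scaling (limma adjusted p = 0.0704) or without the trend (0.0519). SQLE passed with TPM scaling (0.0346) and at a mean of at least 5 FPKM (0.0391), and AACS passed with TPM scaling (0.0442).

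In PTPN21+VCR against NC+VCR none of the 34 genes passed (limma), against 1.82% of all genes tested (0.82% lower, 1.0% higher). An unadjusted limma p under 0.05 was seen for 2 of the 34 genes, against 1980 of the 11591 genes tested. The median difference was -0.01, and 0.03 for all genes. Groups did not overlap for 2 genes that were higher and 3 that were lower (14.7%), against 22.5% of all genes (10.2% lower). The genes with an unadjusted p under 0.05 were MVD (difference -0.76, SE 0.257, limma adjusted p = 0.148) and FADS1 (-0.70, SE 0.283, limma adjusted p = 0.232). The 95% intervals of the 34 differences reached from -1.68 to 1.83 on the log2 scale, the ends set by ELOVL6 and CYP51A1, which varied most between libraries.

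**Figure D4:**
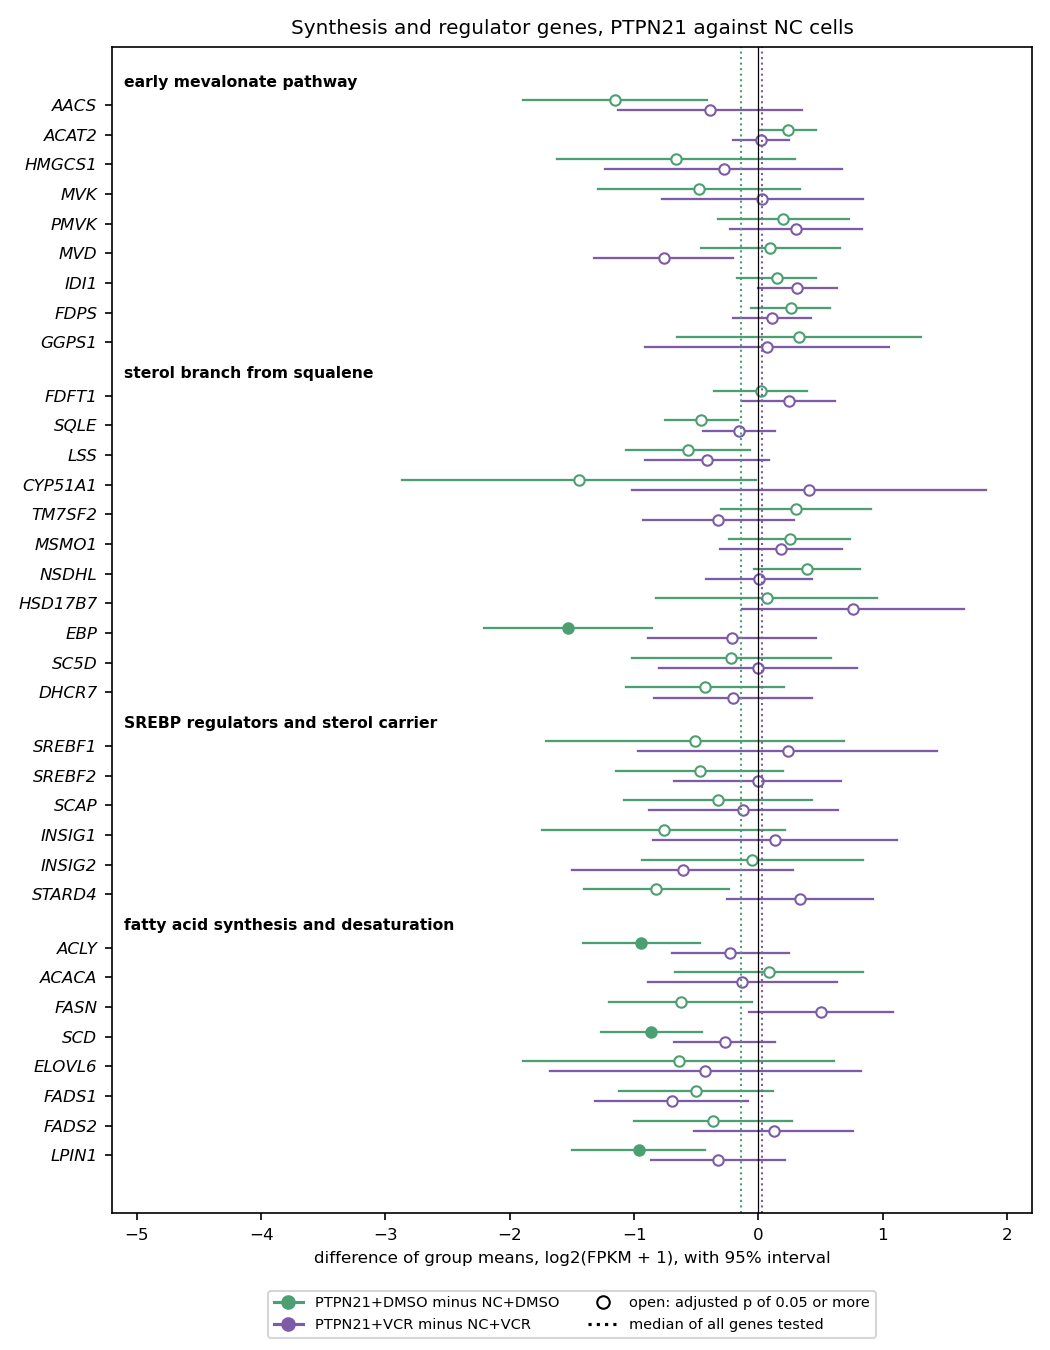
Difference between PTPN21 and NC group means on the log2(FPKM + 1) scale (x axis) for each of the 34 genes (y axis, by role), with 95% intervals from limma, with DMSO (green) and with VCR (purple). Filled points, EBP, ACLY, SCD and LPIN1 with DMSO, have an adjusted p under 0.05, and no point is filled with VCR.

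The interaction asks whether VCR acted differently on the 2 cell lines. None of the 34 genes passed (limma), against 0.129% of all genes tested (0.104% lower, 0.0259% higher). An unadjusted limma p under 0.05 was seen for 6 of the 34 genes, against 1624 of the 11591 genes tested. The 6 were EBP, STARD4, FASN, ACLY and SCD, with values above 0, and MVD, with a value below 0. The lowest adjusted p was 0.231, that of STARD4. The median of the 34 interaction values was 0.22, and 0.17 for all genes. For EBP, STARD4, ACLY and SCD the NC+DMSO libraries, which enter both the interaction and the comparison of DMSO groups, were above those of every other group.

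The genes that feed and extend fatty acid chains but are not among the 34 were read from a separate list, of which 11 of 14 could be tested. In NC cells 3 fell with VCR and none rose, 27.3% called against 36.2% of all genes tested (28.3% lower). SLC25A1, the mitochondrial citrate carrier that exports the substrate of ACLY, went from 27.2 ± 4.18 FPKM (SD, n = 3) in NC+DMSO to 7.60 ± 4.04 in NC+VCR (log2 difference -1.84, limma adjusted p = 0.00113). TECR, an elongation cycle reductase, went from 61.6 ± 8.87 to 34.3 ± 7.66 FPKM (-0.84, limma adjusted p = 0.00395), and ME1, a source of NADPH, from 6.0 ± 1.38 to 2.81 ± 0.479 (-0.86, limma adjusted p = 0.0084). All 3 also fell in PTPN21 cells (log2 differences of -1.44, -1.10 and -0.99), where ELOVL5 and HSD17B12 rose (0.53 and 0.73), 45.5% called against 28.5% of all genes (19.3% lower, 9.22% higher). The median of this list was -0.26 in NC cells and 0.40 in PTPN21 cells, against -0.36 and -0.17 for all genes.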

How the data were processed

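RNA was extracted with Trizol, and sequencing and processing were outsourced by the authors to a company. The authors deposited FPKM per gene, normalized for length and depth. Per the labels, fastp and Bowtie2 were used (versions not given in the sources used here), and the notes name the mouse build mm10, although the table lists human Ensembl identifiers. Of these, 96.3% were in GENCODE release 29 (GRCh38), used for positions. Groups and replicates were taken from the labels.

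log2(FPKM + 1) was computed for genes with a mean of at least 1 FPKM over 12 libraries. The 4 group means were estimated with limma 3.58.1 (R 4.3.3), with a trend of the variance on the mean, Benjamini-Hochberg adjustment over 11591 genes, a threshold of 0.05 and 5 comparisons. The fit was tested on simulated data with 200 genes changed in NC+VCR. It recovered 57% of log2 changes of 1 and 91% of changes of 2, with 5.1% false among the calls. Noise was drawn independently for each gene and library. In the real comparison 36.2% of all genes tested were called, so these rates need not hold there.

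Depth was estimated from the step in FPKM times length of 8708 single-exon genes, searched between 12000000 and 28000000 fragments, so that a multiple of it cannot be told apart. Members and lists were chosen with earlier results of these data known. Genes named with every library are the 16 with the smallest adjusted p over the pairwise comparisons, and SREBF1, SREBF2, SCAP, INSIG1 and INSIG2; from each other list, up to 3 genes with the smallest adjusted p in NC+VCR against NC+DMSO, and those called in PTPN21 cells, added after seeing the data. Erythroid genes were added after seeing the data. Replicate numbers did not pair the libraries (18 pairs of the same number, correlations of deviations from -0.145 to 0.0583). Each result was computed again with a pseudocount of 0.1, without the filter, with a mean of at least 5 FPKM, with TPM scaling, median ratio scaling, no trend, only the 2 groups compared, a replicate block, each library left out and CYP51A1 summed with ENSG00000285772. Summaries used pandas 2.3.3 and numpy 2.4.6 under Python 3.11.15, and figures matplotlib 3.10.9.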

Additional observations from a re-analysis of the deposited data

How the results depend on the processing

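In NC+VCR against NC+DMSO, 9 of the 34 genes passed with no filter (26.5%, against 13.0% of all genes tested in that setting). With median ratio scaling 7 passed (20.6%, against 26.6%, median difference -0.35). With 1 library left out 11 to 16 passed (median -0.82 to -0.62). All genes numbered 2674 with only the 2 groups compared and 3224 to 4024 with 1 library left out. In PTPN21+VCR against PTPN21+DMSO, 7 passed with no filter (20.6%, against 9.89% of all genes tested in that setting). With 1 library left out 7 to 13 passed, 7 without PTPN21+DMSO replicate 2 or PTPN21+VCR replicate 2 (all genes 2353 to 3619, median -0.50 to -0.40). In PTPN21+DMSO against NC+DMSO, 0 passed with no filter or with only the 2 groups compared, and 0 to 6 with 1 library left out (median -0.53 to -0.17); the median was -0.22 at a mean of at least 5 FPKM, and all genes numbered 177 with no filter, 321 without the trend, 40 with only the 2 groups compared and 67 to 1345 with 1 library left out. In PTPN21+VCR against NC+VCR, 0 of the 34 genes passed in every setting, while all genes numbered 118 with no filter, 344 at a mean of at least 5 FPKM, 72 without the trend, 117 with only the 2 groups compared and 43 to 354 with 1 library left out (median -0.14 to 0.03). For the interaction, 0 passed in every setting and all genes numbered 8 with no filter, 8 at a mean of at least 5 FPKM, 9 without the trend and 7 to 30 with 1 library left out (median 0.14 to 0.37). With the replicate block, 1 of the 34 genes and 242 of all genes passed in PTPN21+DMSO against NC+DMSO, 74 of all genes in PTPN21+VCR against NC+VCR and 8 in the interaction; the numbers do not pair the libraries. Named calls that did not pass with the block were ACACA and ACLY (NC+VCR against NC+DMSO), SCAP, FASN and SCD (PTPN21+VCR against PTPN21+DMSO) and ACLY, SCD and LPIN1 (PTPN21+DMSO against NC+DMSO), with limma adjusted p from 0.0521 to 0.0694, and ELOVL6 passed (NC+VCR against NC+DMSO, 0.0361).

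Named genes gave 489 values under other settings and 768 with 1 library left out. Both totals include results not called in the main fit, which had no call to lose, so the share of calls lost is larger than these totals give. Under other settings 54 lost their call, 6 gained one and 2 changed sign. The 2 were INSIG1 (-0.001 with TPM scaling) and INSIG2 (0.10 with median ratio scaling), both in PTPN21+VCR against PTPN21+DMSO and not called. With 1 library left out 76 lost their call, 6 gained one and 12 changed sign. The 12 were not called and were in the same comparison. The ranges there were -0.091 to 0.197 for SREBF2, -0.187 to 0.127 for INSIG1, -0.423 to 0.293 for INSIG2, -0.086 to 0.235 for STARD4, -0.166 to 0.546 for EBP and -0.073 to 0.227 for ACLY. The cause was not tested. Depth limits mainly genes of low FPKM.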

Other observations

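Genes that move or store sterol, and those that sense it through the liver X receptor, were read from a list of 12, of which 10 could be tested. In NC cells 1 fell with VCR and none rose, against 36.2% of all genes called (28.3% lower). NR1H2, the widely expressed liver X receptor, went from 14.3 ± 4.86 FPKM (SD, n = 3) to 6.48 ± 2.0 (log2 difference -1.02, limma adjusted p = 0.0113). In PTPN21 cells none passed (limma), against 28.5% of all genes. An unadjusted limma p under 0.05 was seen for 1 of the 10, against 4628 of the 11591 genes tested. The difference of NR1H2 in PTPN21 cells was -0.61 (limma adjusted p = 0.108). The median of the list was -0.16 in both comparisons.

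Of 14 genes of fatty acid oxidation, 2 fell with VCR in NC cells and none rose, 14.3% called against 36.2% of all genes (28.3% lower). CPT1A, which admits long-chain fatty acids to mitochondria, went from 2.27 ± 0.979 to 0.835 ± 0.327 FPKM (SD, n = 3; log2 difference -0.81, limma adjusted p = 0.0373), and HADHB, a subunit of the trifunctional protein, from 30.6 ± 1.46 to 22.6 ± 3.83 (-0.43, limma adjusted p = 0.0475). In PTPN21 cells 2 rose and none fell, 14.3% called against 28.5% of all genes (9.22% higher). They were DECR1, a reductase for unsaturated fatty acids, from 61.8 ± 11.4 to 132 ± 25.8 FPKM (1.08, limma adjusted p = 0.00191), and ETFDH, which passes electrons to ubiquinone, from 8.45 ± 0.926 to 14.4 ± 2.07 (0.70, limma adjusted p = 0.00951). The median of the list was -0.13 in NC cells and 0.01 in PTPN21 cells.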
